A study of Canis lupus familiaris with 6 samples.

Results

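The FAT and Dachsous cadherins are the giant members of the cadherin superfamily, and 7 genes of this system were examined among the 35993 genes of the table. They were FAT1, FAT2, FAT3 and FAT4, the Dachsous genes DCHS1 and DCHS2, and FJX1. The genes were matched by symbol, but the family was selected on measured values of these same libraries: FAT3 and DCHS1 had been picked by the study itself for their difference between the groups compared here. Differences between the groups are therefore given for the members as descriptions, and no p for such a difference is printed for a member. The counts of members past a limit show how the family was chosen and are no evidence of a difference. Of the 7 members, 6 passed the filter on low counts and 1, DCHS2, was listed at 0 in every library.

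The libraries came from CPEK, a line of canine progenitor epidermal keratinocytes labelled wild type and cultured in DMEM with fetal bovine serum. In 3 libraries the cells were exposed directly for 30 s to cold atmospheric microwave plasma, an argon gas partly ionised by microwaves (dCAMP). In the other 3 they received the carrier gas alone for the same time (gas). Every dish was left for 15 min, given fresh medium and harvested 24 h later, so a single line, exposure and time point was sampled. Nothing in the labels said whether libraries of a group came from separate cultures, so the p-values below measure only the spread between these samples, which may be technical.

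Fat and Dachsous proteins carry long rows of extracellular cadherin repeats and bind each other across the boundary between neighbouring cells, with Fat acting as receptor and Dachsous as ligand. Four-jointed, the fly relative of FJX1, is a Golgi kinase that phosphorylates cadherin repeats of both proteins and so tunes their binding. In the fly the system orients cells within the plane of an epithelium and restrains tissue growth through the Hippo pathway. In mammals the FAT4 and DCHS1 pair is the closest counterpart of the fly receptor and ligand, whereas FAT1 and FAT2 are epithelial proteins linked to actin organisation and cell migration.

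The libraries held 43084921 to 54082634 counts. All 10 keratinocyte markers reached at least 1 CPM (counts scaled by TMM to a common library size) in every library, and their summed level was 48946 to 58513 CPM in gas and 45606 to 48475 CPM in dCAMP. Among markers of other cells, the leukocyte markers PTPRC and CD3E, the fibroblast markers PDGFRB, DCN and LUM, the melanocyte markers TYR and DCT, the endothelial marker PECAM1 and the neural marker ELAVL4 were at 0 in all libraries, and the remaining markers had counts. Summed levels of the 4 endothelial markers were 4.04 to 5.03 CPM in gas and 5.62 to 6.73 CPM in dCAMP, and those of the 4 neural markers 0.130 to 0.207 and 0.210 to 0.443 CPM. Leukocyte markers summed to 0.660 to 1.77 CPM in gas and 0.607 to 1.37 CPM in dCAMP, and melanocyte markers to 0.456 to 0.843 and 0.604 to 0.841 CPM. The melanocyte markers with counts went in opposite directions. MLANA had 4, 0 and 0 counts in gas and 13, 16 and 11 in dCAMP, and PMEL 35, 24 and 39 in gas and 15, 13 and 27 in dCAMP. Fibroblast markers are given with DCHS1. The part of these markers in the results was not tested. The gas libraries differed among themselves. In the median of genes of at least 10 kb, gas replicate 3 lay nearest the dCAMP libraries and gas replicate 1 furthest from them. Without gas replicate 3, the number of genes with an adjusted p under 0.05 in edgeR went from 0 to 4953. The fold change of each member is given with and without gas replicate 3.

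Each cadherin member filled a transcript of more than 10 kb, and FJX1 a short one. In the CanFam3.1 dog genome FAT1 lay on chromosome 16 at 44113621 to 44241187 and had 6 annotated transcripts of 13713 to 15010 bases. FAT2 lay on chromosome 4 at 57743007 to 57823740 with 1 transcript of 14749 bases. FAT3 covered 644306 bases of chromosome 21, from 7711304 to 8355609, with 4 transcripts of 16055 to 16221 bases. FAT4, on chromosome 19 at 15157595 to 15332821, had the longest transcript of the family, 17052 bases.

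The ligand gene DCHS1 shared chromosome 21 with FAT3 but lay far from it, at 29927713 to 29955742, and had 1 transcript of 10602 bases. DCHS2 lay on chromosome 15 at 51910985 to 52038538 with a transcript of 13161 bases. FJX1 was a compact gene on chromosome 18 at 32391276 to 32393321, whose span of 2046 bases equalled its transcript. FAT4, DCHS1 and FJX1 overlapped no other annotated gene. The gene span of FAT3 held LOC479257, a ribosomal protein S24 pseudogene of 537 bases, which had its own counts of 270, 1241 and 1370 in gas and 1301, 1182 and 1277 in dCAMP. Whether the counting used strand was not given in the sources used here, so reads of overlapping genes may be shared. The genes overlapping FAT1 and DCHS2 were at 0 counts in all libraries, and the transcripts of SLC36A1 that overlap FAT2 had at most 5.

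Levels were compared between members as FPKM, which divides fragments by transcript length and by library size, since read counts grow with transcript length. FAT1, a receptor-type cadherin, was the most abundant member. Its mean over the 6 libraries was 62.2 ± 7.06 FPKM (SD, n = 6), above 91.7% of the 14708 genes tested. FAT2, the other epithelial FAT gene, followed at 12.7 ± 0.923 FPKM, and FJX1, the kinase gene, at 11.3 ± 1.86 FPKM. The remaining members lay far lower, with FAT3 at 0.0708 ± 0.0295, FAT4 at 0.0393 ± 0.00890 and DCHS1 at 0.0209 ± 0.0143 FPKM.

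**Figure D1:**
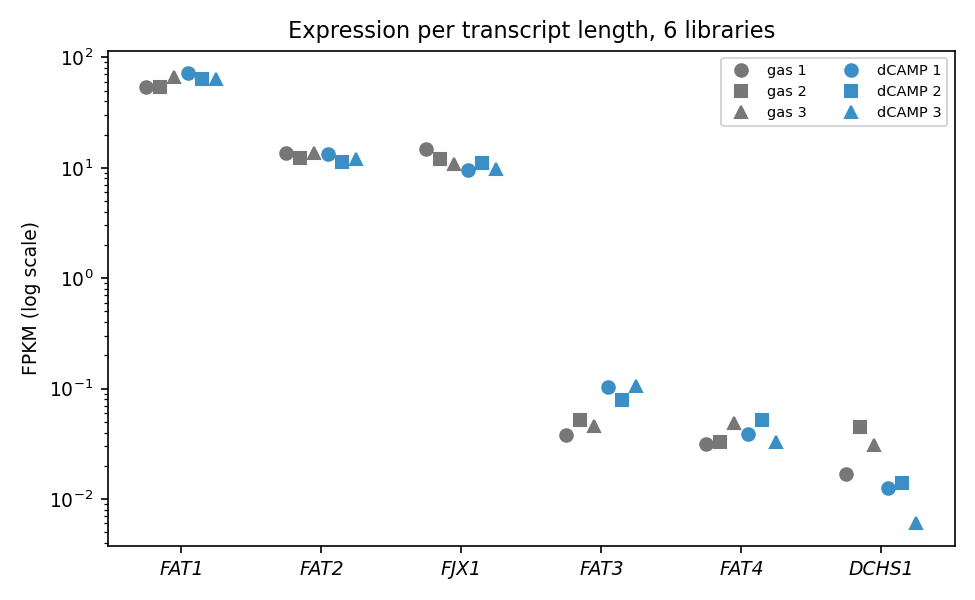
Expression per transcript length of the 6 members with counts, in FPKM on a log axis, with 1 point per library. FAT1 lay above FAT2 and FJX1, whose points overlapped, and FAT3, FAT4 and DCHS1 formed a low group at or below 0.106 FPKM.

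The cadherin mRNA of these members was therefore almost wholly FAT1 and FAT2 on this scale. FAT1 made up 80.0% to 84.6% of the FPKM summed over the 6 cadherin members in the 6 libraries, and FAT2 made up 15.2% to 19.9%. No other cadherin member exceeded 0.140% in any library. DCHS2 had 0 counts throughout, which as a one-sided limit allows up to 3 counts in a library, or 0.0566 to 0.0700 CPM. Its level was not detectable at this depth.

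Neighbours in the order of levels were compared within libraries on the log2(FPKM + 0.01) scale by a two-sided exact sign-flip permutation test, which cannot go below p = 0.03125 with 6 libraries. Adjusted over the 6 neighbouring pairs by Benjamini-Hochberg, 0 pairs passed 0.05. With this smallest p, a pair can pass only if most of the pairs reach it. A single pair therefore cannot pass alone, however large its difference. The outcome of DCHS1 against DCHS2 was fixed by the counts of 0, and over the 5 pairs of members with counts the smallest adjusted p was 0.0781. FAT1 exceeded FAT2 in 6 of 6 libraries, by a mean of 2.28 ± 0.19 log2 units (SD; exact p = 0.03125, adjusted p = 0.0625). FJX1 exceeded FAT3 in 6 of 6, by 7.20 ± 0.74 log2 units (exact p = 0.03125, adjusted p = 0.0625). That difference also holds the contrast, with means of 7.80 in gas and 6.59 in dCAMP.

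FAT2 and FJX1 could not be separated by level, since the mean difference of 0.18 log2 units was smaller than its SD of 0.22 (5 of 6 libraries; exact p = 0.156, adjusted p = 0.156). FAT3 lay above FAT4 in 5 of 6 libraries, by 0.65 ± 0.58 log2 units (exact p = 0.0625, adjusted p = 0.075). This difference was 0.23 log2 units on average in gas and 1.07 in dCAMP. FAT4 lay above DCHS1 in 5 of 6 libraries, by 0.78 ± 0.66 log2 units (exact p = 0.0625, adjusted p = 0.075), with means of 0.27 in gas and 1.29 in dCAMP. The test pools libraries of both groups, and FAT3 and DCHS1 were picked on the contrast between them. No conclusion is therefore drawn from the p-values of FAT3 against FAT4 or FAT4 against DCHS1.

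Gas and dCAMP libraries were then compared by edgeR with TMM-scaled CPM and log2 fold changes (dCAMP over gas) with standard errors (SE). A call required a fold change of at least 2 and an unadjusted p under 0.05. FAT3 was the 1 member called higher in dCAMP, where 0.959% of all genes tested were called higher, and DCHS1 the 1 called lower, where 0.136% were. The other 4 tested members were not called. No member and 0% of all genes passed an adjusted p under 0.05 in edgeR; 2 members (FAT3 and DCHS1) and 3040 genes had an unadjusted p under 0.05. Under DESeq2 0 members and 301 of 20284 genes passed the adjusted threshold. When genes with a 0 in any library were left out, 1 member (FAT3) and 161 of 15304 genes did so. In voom with sample weights 4 members did so, as did 8944 of all 14708 genes. The CPM of all dCAMP libraries exceeded that of all gas libraries for 1 member (FAT3), against 19% of all genes. They lay below all gas libraries for 1 member (DCHS1), against 20.9% of all genes. As both genes were picked on this contrast, these counts describe the choice, and DCHS1 entered the fit only because it was high in gas. The samples are bulk RNA, in which fewer cells expressing a gene and less RNA per cell cannot be told apart.

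**Figure D2:**
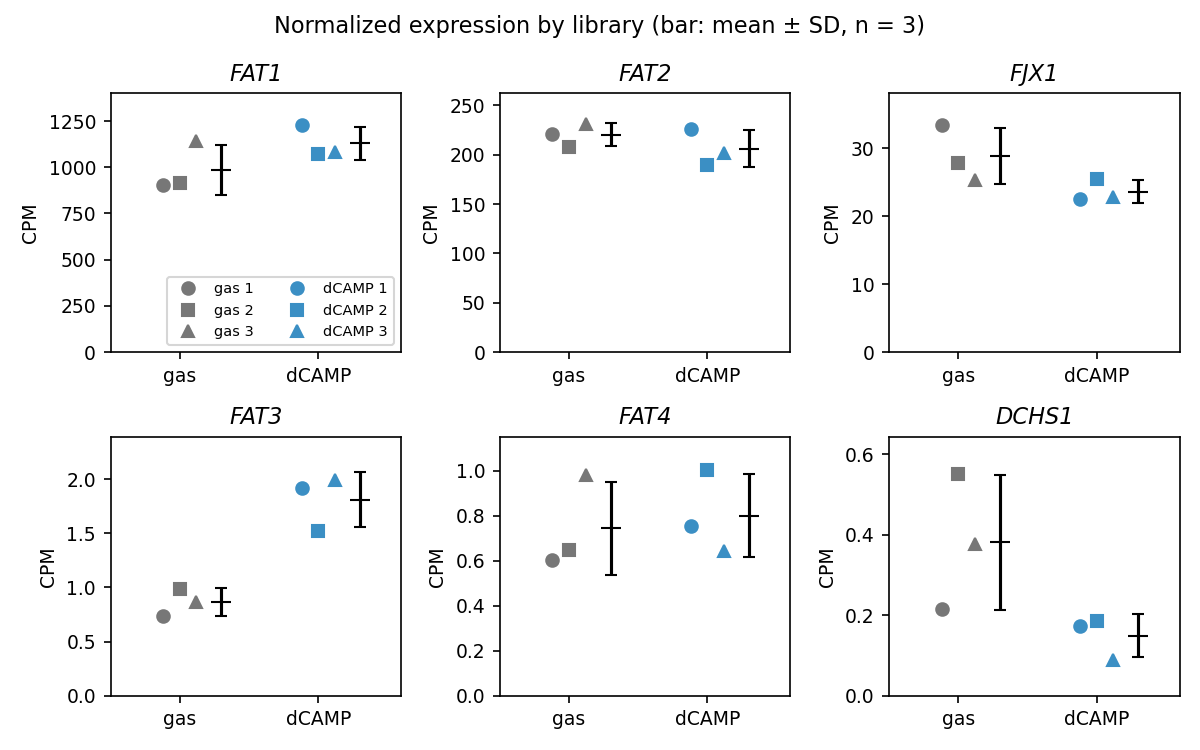
Normalized expression of the 6 members with counts in each library (CPM, axes from 0, 1 point per library), with the mean and SD of each group of 3. The gas and dCAMP points do not overlap for FAT3 and DCHS1 and overlap for FAT1, FAT2, FAT4 and FJX1.

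FAT1 encodes a cadherin receptor that organises actin at cell contacts and leading edges. It measured 903, 915 and 1143 CPM in the gas libraries and 1230.1, 1071 and 1085 CPM in the dCAMP libraries. Gas replicate 3 fell within the dCAMP range and the other gas libraries below it, so the groups overlapped. The means were 987 ± 135 CPM in gas and 1129 ± 88.1 CPM in dCAMP (SD, n = 3 each), a log2 fold change of 0.19 (SE 0.12). It became −0.10 (SE 0.09) with a correction for transcript length (the length correction). Without gas replicate 3 it was 0.27 (SE 0.08).

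The reads of FAT1 were assigned mainly to transcript variant X3 of 14973 bases. This variant held 88.6%, 80.4% and 86.3% of FAT1 counts in gas and 81.0%, 78.8% and 85.5% in dCAMP, and the groups overlapped. Variant X1 of 15010 bases held 8.55% to 14.5% across the 6 libraries, variant X2 of 14745 bases 1.85% to 7.55%, and variant X6 had 0 counts. Transcripts this alike share most of their sequence, so the split rests on the authors' assembly-based estimates.

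FAT2 is a FAT cadherin found chiefly in squamous epithelia, where it acts at the leading edge of migrating cells. It measured 221, 208 and 231 CPM in gas and 227, 189.96 and 201 CPM in dCAMP. The groups overlapped, and the spread was narrow: the coefficient of variation was 5.25% in gas and 9.07% in dCAMP. Mean levels were 220.2 ± 11.6 and 206 ± 18.7 CPM (SD, n = 3 each), a log2 fold change of −0.10 (SE 0.10). With the length correction it was −0.41 (SE 0.14), and without gas replicate 3 −0.11 (SE 0.10).

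The balance between these abundant receptors, which have nearly the same transcript length, was also compared between the groups. The FPKM ratio of FAT1 to FAT2 was 4.02, 4.33 and 4.87 in gas and 5.36, 5.56 and 5.30 in dCAMP. All dCAMP ratios lay above all gas ratios, and gas replicate 3 was the gas library closest to dCAMP. The means were 4.41 ± 0.428 and 5.41 ± 0.136 (SD, n = 3 each), which differ 1.23-fold, and the gas mean was 4.18 without gas replicate 3. As the ratio uses the contrast on which the family was selected, it is given without a test.

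**Figure D3:**
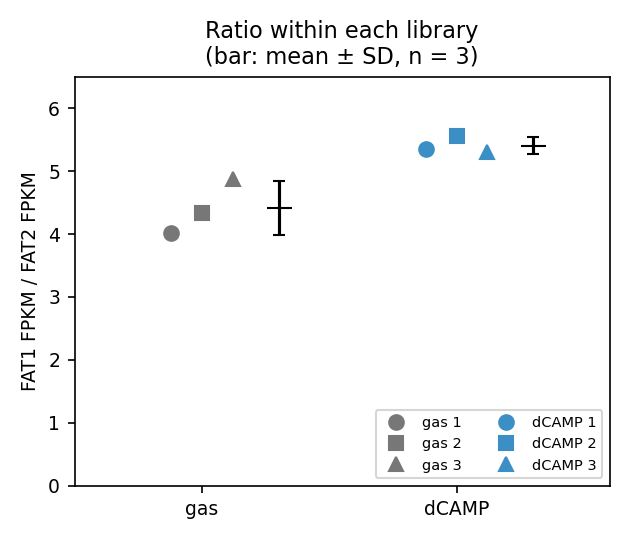
Ratio of FAT1 FPKM to FAT2 FPKM within each library, with the mean and SD of each group of 3 (axis from 0). The gas libraries sit between 4.02 and 4.87 and the dCAMP libraries between 5.30 and 5.56.

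FAT3, a receptor-type cadherin known mainly from neurons and the retina, was close to the detection limit. Its counts were 34, 52 and 46 in gas and 89, 65 and 90 in dCAMP, spread over transcripts of some 16 kb. These correspond to 0.735, 0.988 and 0.867 CPM in gas and 1.92, 1.52 and 1.99 CPM in dCAMP. All dCAMP libraries lay above all gas libraries, without overlap.

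The FAT3 means were 0.863 ± 0.127 CPM in gas and 1.81 ± 0.256 CPM in dCAMP (SD, n = 3 each), a log2 fold change of 1.03 (SE 0.20) or 2.04-fold. The value stood just past the 2-fold limit and was 0.99 without gas replicate 3 and 0.74 (SE 0.21) with the length correction. Exact 95% Poisson intervals, which cover counting error only, were 38.8 to 68.2 counts for the highest gas library and 50.2 to 82.8 for the lowest dCAMP library, and these overlapped. Summed neural markers were also higher in dCAMP without overlap (0.130 to 0.207 CPM in gas, 0.210 to 0.443 in dCAMP). Of the 4, ELAVL4 was at 0 in every library, and SNAP25 had 0, 5 and 6 counts in gas and 14, 6 and 12 in dCAMP. TUBB3 overlapped between the groups, at 3, 2 and 5 counts in gas and 0, 3 and 8 in dCAMP. SYT1 went the other way, at 3, 0 and 0 counts in gas and 0 in every dCAMP library. The part of these markers in the FAT3 value was not tested. FAT3 counts were assigned wholly to variant X1 in gas replicate 3 and dCAMP replicate 1 and split with other variants elsewhere, with X1 holding 52.9% to 65.6% in the other libraries.

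FAT4 is the receptor that pairs with DCHS1, best known from mesenchyme, kidney and other developing organs. Its counts were 28, 34 and 52 in gas and 35, 43 and 29 in dCAMP. These gave 0.605, 0.646 and 0.9803 CPM in gas and 0.755, 1.003 and 0.642 CPM in dCAMP. The groups overlapped widely, with gas replicate 3 and dCAMP replicate 2 highest. The means of 0.744 ± 0.206 and 0.800 ± 0.185 CPM (SD, n = 3 each) gave a log2 fold change of 0.10 (SE 0.28), whose sign turned in 5 settings: both length corrections (−0.16 and −0.18) and the fits without gas replicate 1, gas replicate 2 or dCAMP replicate 2 (−0.04, −0.01 and −0.11). Without gas replicate 3 it was 0.29 (SE 0.28).

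DCHS1, the ligand of FAT4, was the least abundant member with any counts. It had 10, 29 and 20 counts in gas and 8, 8 and 4 in dCAMP, or 59 against 20 in sum. The levels were 0.216, 0.551 and 0.377 CPM in gas and 0.173, 0.187 and 0.0885 CPM in dCAMP. All dCAMP libraries lay below all gas libraries, but gas replicate 1 was close to dCAMP replicate 2.

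The DCHS1 means were 0.381 ± 0.167 CPM in gas and 0.149 ± 0.0531 CPM in dCAMP (SD, n = 3 each), a log2 fold change of −1.16 (SE 0.42). The gene passed the filter through the gas libraries alone, as all 3 gas and 0 dCAMP libraries reached the required level. At its dCAMP level in both groups it would not have been tested. The exact 95% Poisson interval of gas replicate 1, 4.80 to 18.4 counts, overlapped those of all dCAMP libraries, the highest of which was 3.45 to 15.8. Without gas replicate 2, the highest library, the log2 fold change was −0.85 (SE 0.45), and without gas replicate 3 it was −1.20 (SE 0.50). Fibroblast markers, from a cell type that often expresses DCHS1, summed to 5.18 to 5.77 CPM in gas and 5.53 to 5.83 CPM in dCAMP. Single markers differed in direction. COL1A1 was lower in dCAMP without overlap (1.40, 1.58 and 1.04 CPM in gas, 1.01, 0.863 and 0.575 in dCAMP). COL1A2 and COL3A1 had log2 fold changes of 0.54 and 0.16. PDGFRA had 4, 10 and 11 counts in gas and 12, 12 and 3 in dCAMP. The part of these markers in the DCHS1 value was not tested.

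The receptor transcripts FAT3 and FAT4 were compared with the ligand transcript DCHS1 in the same way. The FPKM ratio of FAT4 to DCHS1 was 1.83, 0.741 and 1.598 in gas and 3.06, 3.66 and 5.40 in dCAMP, so the groups did not overlap. That of FAT3 to DCHS1 was 2.25, 1.17 and 1.498 in gas and 8.16, 5.61 and 17.6 in dCAMP, again without overlap. Both ratios rest on 4 to 29 DCHS1 counts a library and on the contrast that chose the genes.

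FJX1 encodes the secreted and Golgi-resident relative of the fly kinase that modifies Fat and Dachsous. It had 1029 to 1545 counts, and its level was 33.4, 27.8 and 25.4 CPM in gas and 22.6, 25.5 and 22.8 CPM in dCAMP. Gas replicate 1 was the highest library, and the groups overlapped only through gas replicate 3 and dCAMP replicate 2. The means were 28.9 ± 4.10 and 23.6 ± 1.63 CPM (SD, n = 3 each), a log2 fold change of −0.29 (SE 0.13), and the length correction left it at −0.28 (SE 0.15). Without gas replicate 3 it was −0.42 (SE 0.13).

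Transcript length moved with the contrast across the whole table. The median log2 fold change was −0.09 for the 1715 genes under 1 kb, −0.07 for 3871 genes of 1 to 2 kb, 0.06 for 6818 genes of 2 to 5 kb, 0.20 for 2057 genes of 5 to 10 kb and 0.29 for the 247 genes of at least 10 kb. Over all genes it was 0.03. Among the genes of at least 10 kb, 73.3% had a higher value in dCAMP, against 52.4% of all genes. Their median was also 0.29 in the 242 that were left without the cadherin members, and −0.01 with the length correction.

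**Figure D4:**
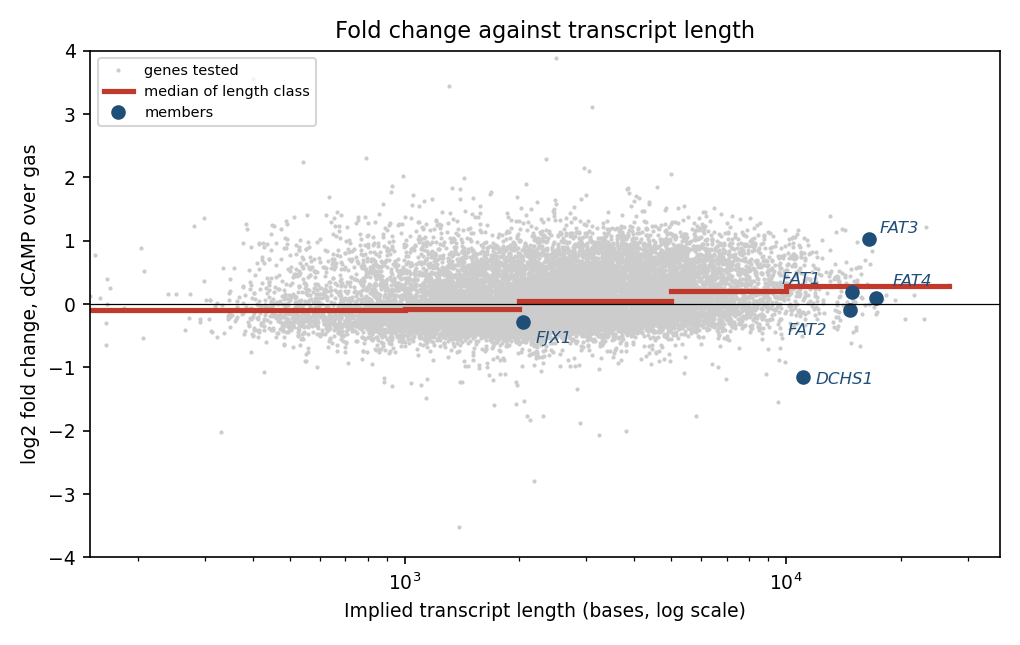
Log2 fold change (dCAMP over gas) against implied transcript length (log axis) for the genes tested, with the median of each length class as a red bar and the 6 members named. The medians run from −0.09 under 1 kb to 0.29 from 10 kb, with FAT3 above and DCHS1 below the bar of their class; 2 genes beyond ±4 log2 units and 42 genes shorter than 150 bases are not drawn.

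Set among the genes of at least 10 kb, the extremes of the 5 giant cadherins with counts were the genes picked on this contrast. FAT3 was at the 95.1 percentile of that class and DCHS1, tested only because it was high in gas, was its lowest gene, at percentile 0. Of the other 3, FAT1 stood at percentile 44.9, FAT4 at 35.2 and FAT2 at 19.4. FAT1 thus lay near the middle of the class of at least 10 kb, while FAT2 lay in its lower part. The 57 tested genes of at least 14 kb, nearer the FAT lengths, had a lower median of 0.14. FAT1, at 0.19, lay above it. With the length correction the median of these 57 genes was −0.13, against −0.04 over all genes tested. Among the genes of at least 10 kb, 2 were called higher, FAT3 and CSMD3, the latter named because it was the other gene in a small count. DCHS1 was the 1 called lower.

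The gas libraries differed among themselves in the values of long genes. Values here are relative to the mean of the dCAMP libraries. The median of genes of at least 10 kb, members left out, was −0.44 log2 units in gas replicate 1, −0.30 in gas replicate 2 and −0.02 in gas replicate 3. The median of all genes was −0.01, −0.01 and 0.00. FAT1 followed these values at −0.32, −0.30 and 0.02. FAT4 was at −0.36, −0.27 and 0.30. FAT2, of almost the same length as FAT1, was at 0.11, 0.02 and 0.17, so no gas library had it below the dCAMP mean. FAT3 was at −1.24, −0.84 and −1.02 and DCHS1 at 0.47, 1.68 and 1.17, and in neither gene did gas replicate 3 reach the dCAMP mean. How far length or RNA quality contributes to the values of single members was not tested.

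**Figure D5:**
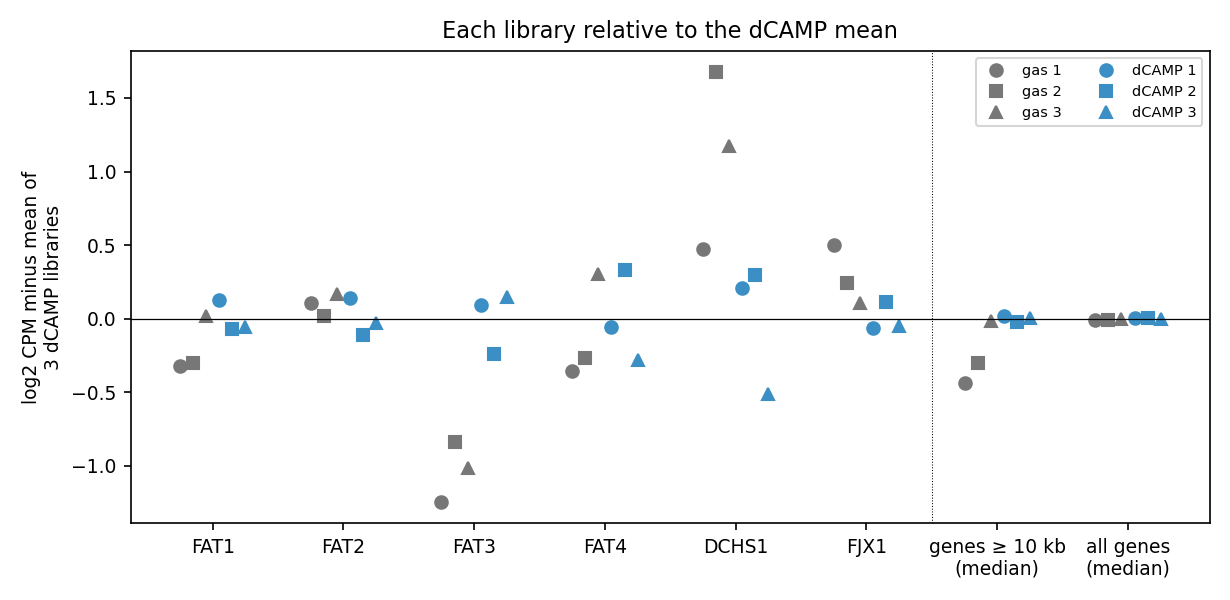
Log2 CPM of each member in each library minus the mean of the 3 dCAMP libraries. Beside them are the median of genes of at least 10 kb, members left out, and that of all genes tested. Gas replicates 1 and 2 lie below 0 and gas replicate 3 near 0 for FAT1 and for the long genes, whereas all gas points lie below 0 for FAT3 and above 0 for FAT2, DCHS1 and FJX1.

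Genes around the FAT and Dachsous system were described from 5 lists holding 81 genes of the table, of which 70 were tested. None was called at 2-fold in either direction in edgeR, against 0.959% called higher and 0.136% called lower among all genes. An unadjusted p under 0.05 was found for 6 with higher and 10 with lower values, together 22.9% of those tested, close to the 20.7% of all genes. The dCAMP libraries all lay above the gas libraries for 15 of the 70 and all below for 16. Over all genes these shares were 19% and 20.9%, so groups without overlap were common. DESeq2 also called 0, where it called 308 higher and 61 lower of 20284 genes. It called 1 (MOB1B) when genes with a 0 in any library were left out, with 300 higher and 27 lower of 15304 genes. Voom also called 1 (MOB1B), with 904 higher and 106 lower of 14708 genes. No gene of the lists reached an adjusted p under 0.05 in edgeR. The median log2 fold change of the lists together was −0.08, against 0.03 over all genes tested, and −0.22 with the length correction, against −0.04. Without gas replicate 3, 4953 of 14975 genes had an edgeR adjusted p under 0.05. Of the 10 list genes named below 7 did so (AJUBA, CSNK1D, FRMD6, MOB1A, JUP, CTNNB1 and PCDH7), between 0.0203 and 0.0376, with the same signs. The 10 were the genes of highest mean CPM in each list, so their share stands neither for the lists nor beside that of all genes.

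The list of FAT and DCHS binding partners and effectors had 19 tested genes, 5 with higher and 14 with lower values in dCAMP and a median of −0.16 (−0.28 with the length correction). AJUBA, a LIM protein that inhibits LATS kinases, measured 476 ± 32.2 CPM in gas and 427 ± 13.9 in dCAMP (SD, n = 3 each; log2 fold change −0.16, SE 0.08, edgeR adjusted p = 0.279). CSNK1D, a casein kinase whose fly relative phosphorylates Fat, measured 317 ± 31.5 and 259 ± 3.08 CPM (−0.29, SE 0.09, edgeR adjusted p = 0.221). Its dCAMP libraries all lay below its gas libraries.

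Of the Hippo core and upstream regulators all 21 were tested, 13 with higher and 8 with lower values, and the median of 0.17 became −0.06 with the length correction. FRMD6, an upstream activator of the pathway, measured 160 ± 36.6 CPM in gas and 216 ± 6.49 in dCAMP (SD, n = 3 each; log2 fold change 0.43, SE 0.16, edgeR adjusted p = 0.234). MOB1A, a coactivator of the LATS kinases, measured 137 ± 64.6 and 214 ± 10.5 CPM (0.64, SE 0.32, edgeR adjusted p = 0.273). The dCAMP libraries of FRMD6 all lay above its gas libraries. Gas replicate 3 lay within the dCAMP range for MOB1A, whose log2 fold change was 1.03 (SE 0.15) without it.

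Of the core planar cell polarity genes 14 were tested, 4 with higher and 10 with lower values and a median of −0.11 (−0.28 with the length correction). CELSR2, itself a large cadherin of the polarity complex, measured 162 ± 12.3 CPM in gas and 152 ± 7.60 in dCAMP (SD, n = 3 each; log2 fold change −0.09, SE 0.09, edgeR adjusted p = 0.498). FZD6, a Frizzled receptor of skin polarity, measured 137 ± 28.3 and 151 ± 6.08 CPM (0.14, SE 0.16, edgeR adjusted p = 0.567). Both genes overlapped between the groups.

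The 11 adherens junction genes had 4 higher and 7 lower values and a median of −0.08 (−0.22 with the length correction). CTNNB1, β-catenin, measured 716 ± 53.4 CPM in gas and 935 ± 33.1 in dCAMP without overlap (SD, n = 3 each; log2 fold change 0.39, SE 0.08, edgeR adjusted p = 0.221). JUP, plakoglobin, measured 1278 ± 173 and 1130 ± 46.0 CPM (−0.18, SE 0.11, edgeR adjusted p = 0.333). These linkers of classical cadherins to actin and keratin thus had fold changes of opposite sign.

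Of the other non-classical cadherins only 5 of 13 passed the filter, 2 with higher and 3 with lower values and a median of −0.12 (−0.30 with the length correction). PCDH7, a protocadherin, measured 151 ± 15.1 CPM in gas and 122.7 ± 5.24 in dCAMP without overlap (SD, n = 3 each; log2 fold change −0.30, SE 0.10, edgeR adjusted p = 0.221). PCDH1, an epithelial protocadherin, measured 66.8 ± 12.7 and 61.3 ± 3.88 CPM (−0.12, SE 0.15, edgeR adjusted p = 0.592). In these lists no gene passed the adjusted edgeR test with all 6 libraries, and neither did any other gene tested. The signs are therefore given as values, and whether a list gene changed is left undecided.

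The genes whose pattern over the 6 libraries was most like each member were taken by Pearson r of log2 CPM, as a description over libraries that share 2 groups. For FAT1 they were ANKRD44 (r = 0.990) and ADAM22 (0.989), and for FAT2 CBFA2T2 (0.982) and CHRNA9 (0.964). FAT3 was most like MAPRE2 (0.998) and LRIG3 (0.995), and FAT4 most like KCNJ14 (0.983) and ARHGEF26 (0.981). DCHS1 was most like LOC106558622 (0.993) and EIF1 (0.984), and FJX1 most like TFDP1 (0.999) and TAGLN2 (0.998).

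The number of such genes set FJX1 and FAT2 at opposite ends. An r of at least 0.95 was reached by 675 genes for FJX1, 4.59% of those tested, and by 4 genes for FAT2, with 79 for FAT3, 41 for FAT1, 21 for DCHS1 and 15 for FAT4. Among the members themselves, r was −0.85 between FAT1 and FJX1, −0.86 between FAT3 and FJX1, 0.64 between FAT1 and FAT3, and 0.22 between FAT1 and FAT2. In these 6 libraries the values of FJX1 thus ran opposite to those of FAT1 and FAT3, and those of FAT1 and FAT2 had little pattern in common. The r values hold the contrast between the groups, on which FAT3 was picked, and no length correction. They therefore show no relation between the genes themselves, and the part of group and length in them was not tested.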

How the data were processed

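RNA of canine CPEK cells (3 gas and 3 dCAMP libraries) had been sequenced from stranded mRNA libraries. Per the labels, the authors used FastQC 0.11.7, Trimmomatic 0.38, HISAT2 2.1.0 and StringTie 2.1.3b on the genome build CanFam3.1. The authors deposited read counts and FPKM per gene and per transcript, and 0 per-sample columns lacked a sample. TPM columns were not used. The annotation release and the strand setting of the counting are not given in the sources used here. The members and lists were chosen with earlier results of these data known.

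Deposited counts were fitted with edgeR 4.0.16 (R 4.3.3; TMM, filterByExpr, quasi-likelihood test, prior count 2) on 14708 of 35993 genes, with Benjamini-Hochberg adjustment over all genes tested. The smallest adjusted p was 0.136. Genes were called at an unadjusted p under 0.05 together with a change of at least 2-fold, the limits of the study's methods. Transcript length was implied by counts over FPKM. For the length correction, a lowess trend (span 0.3) of log2 CPM deviations on log2 length was fitted in each library and used as an offset. Deposited FPKM values were compared between members by an exact sign-flip test on log2(FPKM + 0.01). SD, n and exact Poisson intervals are given where used; the intervals cover counting error only. limma 3.58.1 (voom, and log2 FPKM with pseudocounts 1 and 0.1) and DESeq2 1.42.0 served as alternatives. The fit was tested on simulated data with 200 changed genes.

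Named genes were all 7 members, the 2 genes of each list with the highest mean CPM, any list gene with an adjusted p under 0.05, and the 2 genes most like each member. Of the lists, PALS1, CDHR5 and CLSTN1 had no row under those symbols. Group comparisons of ratios, lengths and likeness are descriptions without a test. No sequences are printed.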

Additional observations from a re-analysis of the deposited data

How the results depend on the processing

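Of the 2 members called at 2-fold, 1 remained with upper-quartile factors (DCHS1), with at least 10 counts in every library (FAT3, as DCHS1 was then not tested), in voom (DCHS1), with the length correction (DCHS1), and with the length correction and replicate block together (DCHS1). With the replicate block alone 1 remained (FAT3). None (0) remained on the log2(FPKM + 1) or log2(FPKM + 0.1) scale, where a pseudocount shrinks low genes by construction (FAT3 0.07 and 0.43, DCHS1 −0.03 and −0.23). Leaving out 1 library gave 0 to 2: 0 without gas replicate 3, dCAMP replicate 1 or dCAMP replicate 3, 1 without gas replicate 1 (DCHS1) or gas replicate 2 (FAT3), and 2 without dCAMP replicate 2. FAT3 ranged from 0.92 to 1.11 and DCHS1 from −1.42 to −0.85 over these fits. Members with an adjusted p under 0.05 went from 0 to 1 (FAT3) in DESeq2 when genes with a 0 in any library were left out, where 161 of 15304 genes passed. They went to 4 (FAT1, FAT3, DCHS1, FJX1) in voom, where 8944 of 14708 genes passed. With 1 library left out they ranged from 0 to 1. The 1 was FAT3 without gas replicate 3, where 4953 of 14975 genes passed. List genes called went from 0 to 1 (MOB1B) in that DESeq2 fit, in voom, on both FPKM scales and with the length correction and replicate block. With 1 library left out they ranged from 0 to 7. The 7 (DLG1, MPP5, STK3, MOB1A, MOB1B, LATS1 and FZD3) were called without gas replicate 3, where calls rose over all genes too, to 1473 higher and 50 lower of 14975. The median of genes of at least 10 kb was 0.29 with the replicate block, −0.0147 and −0.0045 with the length correction without and with the block, which remove such a trend by construction, and 0.16 to 0.31 with 1 library left out. FAT1 changed sign with both length corrections (−0.10 in each) among its 18 settings. For the remaining changes the cause was not tested.

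Over all genes the calls, 141 higher and 20 lower, were 417 and 18 with the replicate block, 904 and 106 in voom, 308 and 61 in DESeq2, 326 and 16 on log2(FPKM + 0.1) and 1473 and 50 without gas replicate 3. Genes with an adjusted p under 0.05 went from 0 to 301 in DESeq2, 8944 in voom, 3 on log2(FPKM + 0.1) and 4953 without gas replicate 3. Libraries shared only replicate numbers: deviations of same-numbered libraries correlated at 0.13, 0.024 and 0.048. The order of the member levels was the same in all alternatives, and 0 pairs passed an adjusted p under 0.05 in any, nor over the 5 pairs of members with counts (chosen after seeing the data). With 5 libraries no pair can pass. Depth limits FAT3, FAT4 and DCHS1, each below 2 CPM in every library, and DCHS2, at 0.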
